A study of Mus musculus with 11 samples.

Results

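Kinesins, dyneins and dynactin are the motors that move cargo and spindle parts along microtubules, and their transcripts were measured in mouse tissue in which Nfasc, Ank3 or both were targeted. The genes described are all rows of the count table whose symbol begins with Kif, Klc, Dync or Dctn followed by a digit and that held at least 10 counts over the 11 libraries. The pattern matched 55 symbols, of which 52 passed and form the motor genes, out of 17557 genes that passed the same filter. Kif12 (8 counts over all libraries), Kif4b (2 counts) and Kif2b (0 counts) were left out. By role the 52 genes comprise 3 kinesin-1 heavy chains, 4 kinesin light chains, 4 kinesin-2 genes, 6 kinesin-3 transport motors, 4 non-mitotic kinesin-4 genes, 11 mitotic kinesins, 7 cilium and other kinesins, 5 subunits of cytoplasmic dynein-1, 2 of cytoplasmic dynein-2 and 6 of dynactin.

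The study asked how the cell adhesion protein NF186 and the scaffold AnkG, which together build the axon initial segment, act in Purkinje cells. Polyadenylated RNA was sequenced in bulk from tissue labelled as cerebellar hemisphere, with 3 control, 3 NFKO (Pcp2-Cre;NfascFx/Fx), 2 AnkGKO (Pcp2-Cre;AnkGFx/Fx) and 3 DKO (Pcp2-Cre;NfascFx/Fx;AnkGFx/Fx) libraries. The mice were untreated littermates of mixed sex, aged 30 days by the descriptions and 32 days by the protocol, all from a single labelled batch. Controls carried floxed alleles of Nfasc, Ank3 or both and no Cre according to the methods, while Pcp2-Cre is part of the control genotype elsewhere in the study. The background is given as C57BL/6J in the descriptions and as mixed C57BL/6J;129 in the growth protocol. Pcp2-Cre is described by the study as expressing Cre mainly in Purkinje cells. Ank3, which encodes AnkG, was at 353 to 407 CPM (read counts scaled to library size and TMM-normalized) in the 6 control and NFKO libraries and at 156 to 200 CPM in the 5 AnkGKO and DKO libraries, without overlap. Whole-gene counts of Nfasc overlapped between control (661 to 718 CPM) and NFKO (622 to 701 CPM) and so do not check the NFKO label. They were lower in the DKO libraries (559 to 606 CPM) than in all others, with AnkGKO at 717 and 953 CPM, and DKO against control did not pass (edgeR adjusted p = 0.619).

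The markers went against the tissue label. The Purkinje cell gene Pcp2 stood at 26.3 CPM in control replicate 1 and 28.3 CPM in NFKO replicate 1 but between 0.0929 and 2.14 CPM in the other 9 libraries. The granule cell gene Gabra6 was at 84.2 and 59.0 CPM in the same pair and at no more than 4.41 CPM elsewhere, while 12 caudal Hox genes, which pattern the trunk spinal cord, summed to 395 to 615 CPM in every library. Results are therefore also given without that pair of libraries. Pcp2 was at 0.103 to 0.374 CPM in the AnkGKO and DKO libraries, where whole-tissue Ank3 was at 156 to 200 CPM. In which cells Ank3 was lower was not tested. In bulk tissue, fewer cells of a type and less RNA per cell cannot be told apart. Between 38890851 and 55822361 reads were counted on genes per library, and the floor of 3 counts equals 0.0537 to 0.0771 CPM. No source says whether replicates of a group came from separate litters, and p-values measure the spread between these libraries.

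Kinesins mostly walk towards the plus ends of microtubules, which in axons point away from the cell body, and cytoplasmic dynein walks the other way. Kinesin-1 is built of Kif5 heavy chains and light chains, and carries mitochondria, vesicles and neurofilaments along axons. Mitotic kinesins assemble the spindle and complete cell division, and are largely switched off in postmitotic neurons. Levels between genes were compared per kilobase of exon. In the control libraries the highest level was that of Kif5a, the neuronal kinesin-1 heavy chain, at 241 ± 10.5 CPM per kb (SD, n = 3). Kif1a, which carries synaptic vesicle precursors, came next at 198 ± 5.35 CPM per kb (SD, n = 3), followed by the light chain Klc2 at 115 ± 9.09 CPM per kb (SD, n = 3). Kif5c, the other heavy chain enriched in neurons, stood in place 4 of 52 at 90.1 ± 7.53 CPM per kb (SD, n = 3), and its spread overlapped that of Kif1b in place 5 (81.2 ± 4.10 CPM per kb, SD, n = 3). The ubiquitous Kif5b was in place 9 at 50.2 ± 5.22 CPM per kb (SD, n = 3). The 11 mitotic kinesins lay between 0.0353 CPM per kb (Kif15) and 0.324 CPM per kb (Kif22), in places 40 to 52, where the other 2 places belonged to Kif27 and Kif24.

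**Figure D1:**
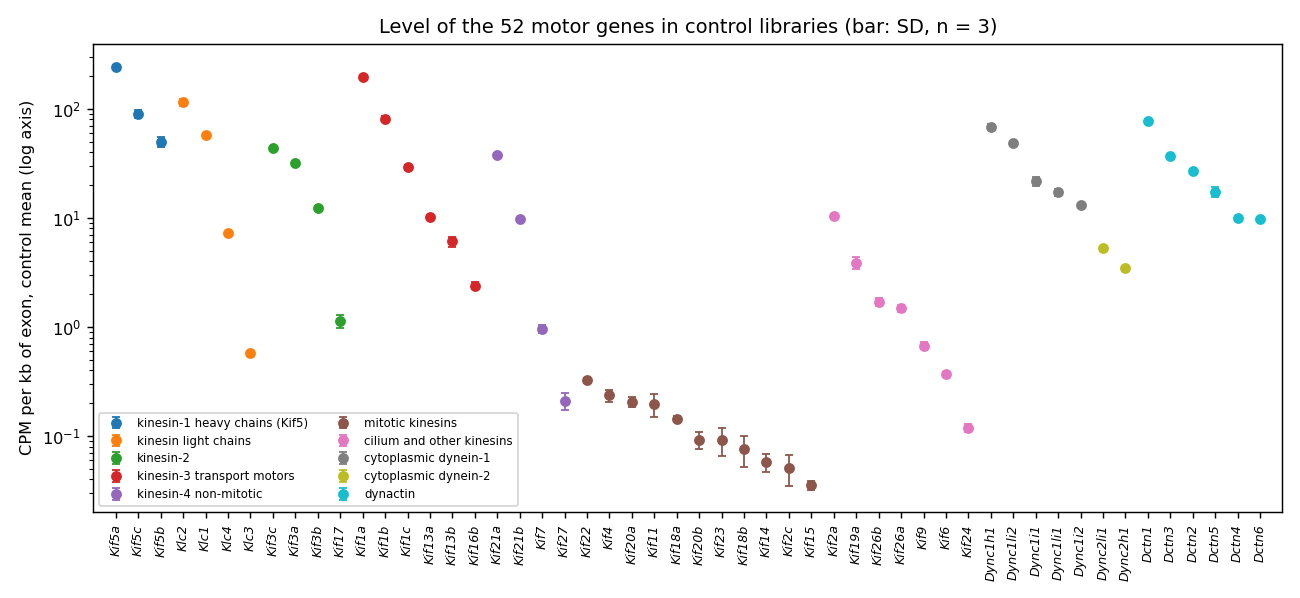
Control mean level of each of the 52 motor genes in CPM per kb of exon on a log axis, grouped and coloured by role, with the SD of 3 libraries as bars. The Kif5 genes and Kif1a sit near the top (Kif5a at 241 CPM per kb), and the mitotic kinesins sit between 0.0353 and 0.324 CPM per kb.

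Of the kinesin-1 heavy chain genes, Kif5a and Kif5b were lower in every AnkGKO and DKO library than in every control and NFKO library. A comparison by Ank3 status was added only after these values had been seen. Against control, Kif5b did not pass in edgeR, and Kif5c passed in no comparison. Kif5a (GRCm39 chr10:127060993-127103180, minus strand) was at 2626, 2761 and 2866 CPM in the control libraries and at 2601, 2879 and 2850 CPM in NFKO. AnkGKO gave 1710 and 2040 CPM and DKO 1994, 2021 and 1981 CPM. Each of the 5 libraries with targeted Ank3 was lower than each of the other 6, and NFKO lay within the control range apart from 1 library on either side. Kif5b, on chromosome 18, was at 612, 606 and 725 CPM in control, at 704, 657 and 637 CPM in NFKO, at 435 and 511 CPM in AnkGKO and at 502, 468 and 478 CPM in DKO. Again the 5 libraries with targeted Ank3 lay under the other 6. Kif5c (GRCm39 chr2:49509265-49664791, plus strand) was at 1314, 1164 and 1371 CPM in control, at 1420, 1201 and 1285 CPM in NFKO, at 959 and 1201 CPM in AnkGKO and at 1155, 1035 and 1163 CPM in DKO. Its AnkGKO libraries overlapped with the controls. As a share of control, mean Kif5a was 68.2% in AnkGKO and 72.7% in DKO, Kif5b 73.1% and 74.5%, and Kif5c 84.1% and 87.1%, while in NFKO the means were 101%, 103% and 101% of control.

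**Figure D2:**
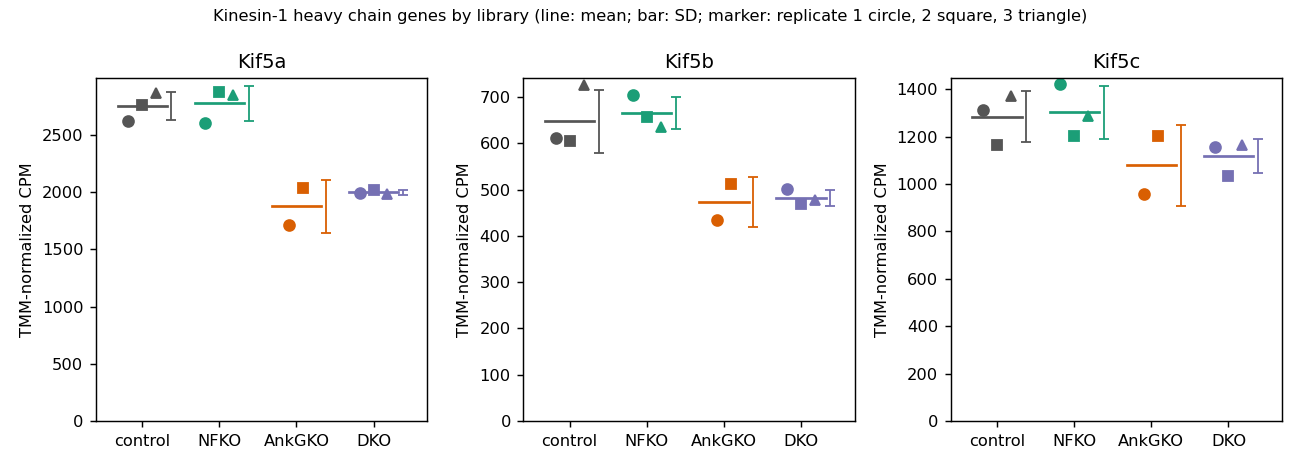
TMM-normalized CPM of Kif5a, Kif5b and Kif5c in each library by genotype, with the mean as a line and the SD as a bar. Kif5a and Kif5b are lower in all 5 AnkGKO and DKO libraries than in all 6 control and NFKO libraries (Kif5a 1710 to 2040 against 2601 to 2879 CPM).

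In AnkGKO against control, Kif5a was lower, with a log2 fold change of -0.55, a standard error of 0.086 and a Benjamini-Hochberg adjusted p of 0.0223 (quasi-likelihood F-test of edgeR). A gene was called at an adjusted p under 0.05 and a log2 change of 0.6 or more in either direction, and none of the 52 was called here, while Kif5a passed on the adjusted p alone. Of all genes, 0.165% were called in this comparison and 0.205% passed the adjusted p alone. DESeq2 passed 2 motor genes, Kif5a and Kif5b, on the adjusted p alone, beside 1.10% of genes. The change of Kif5b was -0.45 (standard error 0.097, edgeR adjusted p = 0.128) and that of Kif5c -0.25 (standard error 0.11, edgeR adjusted p = 0.913). Libraries of AnkGKO lay entirely under the controls in 10 of the 52 motor genes, beside 12.3% of all genes. The result for Kif5a depended on AnkGKO replicate 1, the lowest library for all 3 heavy chains: without it the log2 fold change was -0.44 (edgeR adjusted p = 0.220), and that of Kif5c was -0.10. The edgeR adjusted p of Kif5a also missed the threshold without control replicate 1, 2 or 3 (0.0570, 0.0766 and 0.113) and without DKO replicate 3 (0.0572). Its log2 fold changes in these fits were -0.59, -0.55, -0.52 and -0.55. With only the libraries compared Kif5a was at -0.55 (edgeR adjusted p = 0.131). Without control replicate 1 and NFKO replicate 1, the pair with cerebellar markers, Kif5a was at -0.59 (edgeR adjusted p = 0.0850). The higher motor genes with the smallest p-values were Kif16b, an endosomal kinesin (0.16), Kif7 (0.22) and Kif3b (0.071), each at an edgeR adjusted p of 0.998. The comparisons of AnkGKO, NFKO and DKO with control share the same 3 control libraries.

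In DKO against control no motor gene passed in edgeR, on either rule. Here 0.0228% of all genes were called and 0.0285% passed the adjusted p alone. At an unadjusted p under 0.05 there were 4 motor genes, 1 higher and 3 lower, beside 7.77% of all genes, and DESeq2 with a local dispersion fit passed 2, Kif5a and Kif5b, on the adjusted p alone, beside 0.724% of the genes to which it gave an adjusted p. The log2 fold change of Kif5a was -0.46 (standard error 0.076, 95% interval -0.63 to -0.29, edgeR adjusted p = 0.157), which ranked 7 of 17557 by p-value, and DESeq2 gave it an adjusted p of 1.92e-06. Kif5b changed by -0.42 (standard error 0.085, edgeR adjusted p = 0.405, DESeq2 adjusted p = 0.000916) and Kif5c by -0.20 (standard error 0.099, edgeR adjusted p = 0.646). All 3 heavy chain genes were among the 4 motor genes whose DKO libraries lay entirely under the controls, a pattern that 6.80% of all genes showed. Kif18b was the fourth, at 3 to 7 reads per DKO library.

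Against NFKO, the DKO libraries were lower in Kif5a by -0.47 on the log2 scale (standard error 0.076, edgeR adjusted p = 0.0123) and in Kif5b by -0.46 (standard error 0.085, edgeR adjusted p = 0.0296), and these were the 2 motor genes past the adjusted p alone. In this comparison 0.889% of all genes passed the adjusted p alone and 0.615% were called, among them no motor gene, although 10 motor genes and 16.2% of all genes had an unadjusted p under 0.05. DESeq2 passed 5 motor genes on the adjusted p alone, beside 7.0% of genes. Blocked by replicate number, Kif5b was at -0.46 (edgeR adjusted p = 0.0613), and without the pair of libraries with cerebellar markers at -0.42 (edgeR adjusted p = 0.139). Kif5a stayed past the threshold in both settings (edgeR adjusted p of 0.0153 and 0.0396). Kif5a missed it without NFKO replicate 2, DKO replicate 1 or DKO replicate 3 (edgeR adjusted p of 0.0513, 0.0526 and 0.0565), and Kif5b without NFKO replicate 1 or 2 or DKO replicate 1 or 3 (edgeR adjusted p of 0.116, 0.0875, 0.0643 and 0.10). Kif5c changed by -0.22 (standard error 0.099, edgeR adjusted p = 0.305).

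The difference, DKO minus AnkGKO, was 0.092 for Kif5a (95% interval -0.094 to 0.28), 0.028 for Kif5b (-0.18 to 0.24) and 0.050 for Kif5c (-0.19 to 0.29) on the log2 scale, with edgeR adjusted p-values of 0.796, 0.958 and 0.935. Without AnkGKO replicate 1 the 3 differences were -0.028, -0.081 and -0.10. NFKO minus control was 0.013 for Kif5a (95% interval -0.15 to 0.18), 0.040 for Kif5b (-0.15 to 0.23) and 0.021 for Kif5c (-0.20 to 0.24). The interaction of the knockouts, which asks whether targeting Nfasc changed the effect of targeting Ank3, was 0.079 for Kif5a, -0.012 for Kif5b and 0.029 for Kif5c, with edgeR adjusted p-values from 0.872 to 0.990. A comparison of the 5 AnkGKO and DKO libraries with the 6 control and NFKO libraries was added after these values had been seen. It gave Kif5a at -0.51 (standard error 0.058, edgeR adjusted p = 0.00245), Kif5b at -0.46 (standard error 0.064, edgeR adjusted p = 0.0115) and Kif5c at -0.23 (standard error 0.075, edgeR adjusted p = 0.328). Those 2 of 52 motor genes passed the adjusted p alone, beside 0.216% of all genes, none of the 52 was called, beside 0.131%, and the same 2 of 52 had libraries that did not overlap, beside 0.473% of all genes. Kif5a held without the pair of libraries with cerebellar markers (-0.55, edgeR adjusted p = 0.0135) and without AnkGKO replicate 1 (-0.46, edgeR adjusted p = 0.0110), whereas Kif5b was at -0.46 and -0.41 (edgeR adjusted p = 0.0590 and 0.0577) in these settings. DESeq2 passed Kif5a, Kif5b and Kif3a on the adjusted p alone, beside 2.36% of genes. The higher motor genes with the smallest p-values there were Kif3a (0.15, edgeR adjusted p = 0.328, DESeq2 adjusted p = 0.0338), Dctn5 (0.14, edgeR adjusted p = 0.546) and Dync1h1 (0.14, edgeR adjusted p = 0.560). Over all 4 genotypes, an edgeR F-test passed Kif5a (adjusted p = 0.00537) and Kif5b (adjusted p = 0.0246) and no other motor gene, with 0.723% of all genes past it. Only 1 motor gene passed this test with the replicate block, without the pair of libraries with cerebellar markers, and without NFKO replicate 1 or 2 or DKO replicate 3.

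Kif5a and Ank3 lie on the same chromosome, 57.2 Mb apart. Of 97 tested genes within 5 Mb of Kif5a, none passed the adjusted p in AnkGKO or DKO against control in edgeR, and their median log2 fold changes were -0.0094 and 0.0096. One, Rnf41, named after its values were seen, was higher at an adjusted p under 0.05 both in DKO against NFKO and in the added comparison. Dctn2 begins within 1081 bases of the 5′ end of Kif5a on the other strand, and reads there could fall to either gene, as no source says whether strand was used in counting. Dctn2 was at 281 to 305 CPM in control and at 314 to 326 CPM in DKO. Of the 50-base words of Kif5a transcripts, 6.69% also occur in another gene, most of them in the lncRNA Gm40800 within its span. Cell type markers were read beside these values. The sum of 6 neuron markers was 8028 to 10827 CPM in control and NFKO and 8045 to 11704 CPM in AnkGKO and DKO, 3 of them higher and 3 lower. All 6 motor neuron markers were higher with targeted Ank3 and summed to 266 to 597 CPM against 217 to 464 CPM. All 5 Purkinje and all 8 granule cell markers were lower there, at 169 to 239 and 231 to 273 CPM against 181 to 1034 and 224 to 840 CPM in control and NFKO, and astrocyte markers, 4 of 5 higher, were at 3476 to 4768 against 2759 to 3516 CPM. Microglia markers (5 of 5, median log2 fold change 0.12) and blood cell markers (5 of 5, median 0.17) were also higher with targeted Ank3. Meningeal fibroblast markers (4 of 4, median -0.97) and Schwann cell markers (4 of 4, median -0.57) were lower. No marker passed the adjusted p in edgeR. The part of these markers in the Kif5 values was not tested.

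**Figure D3:**
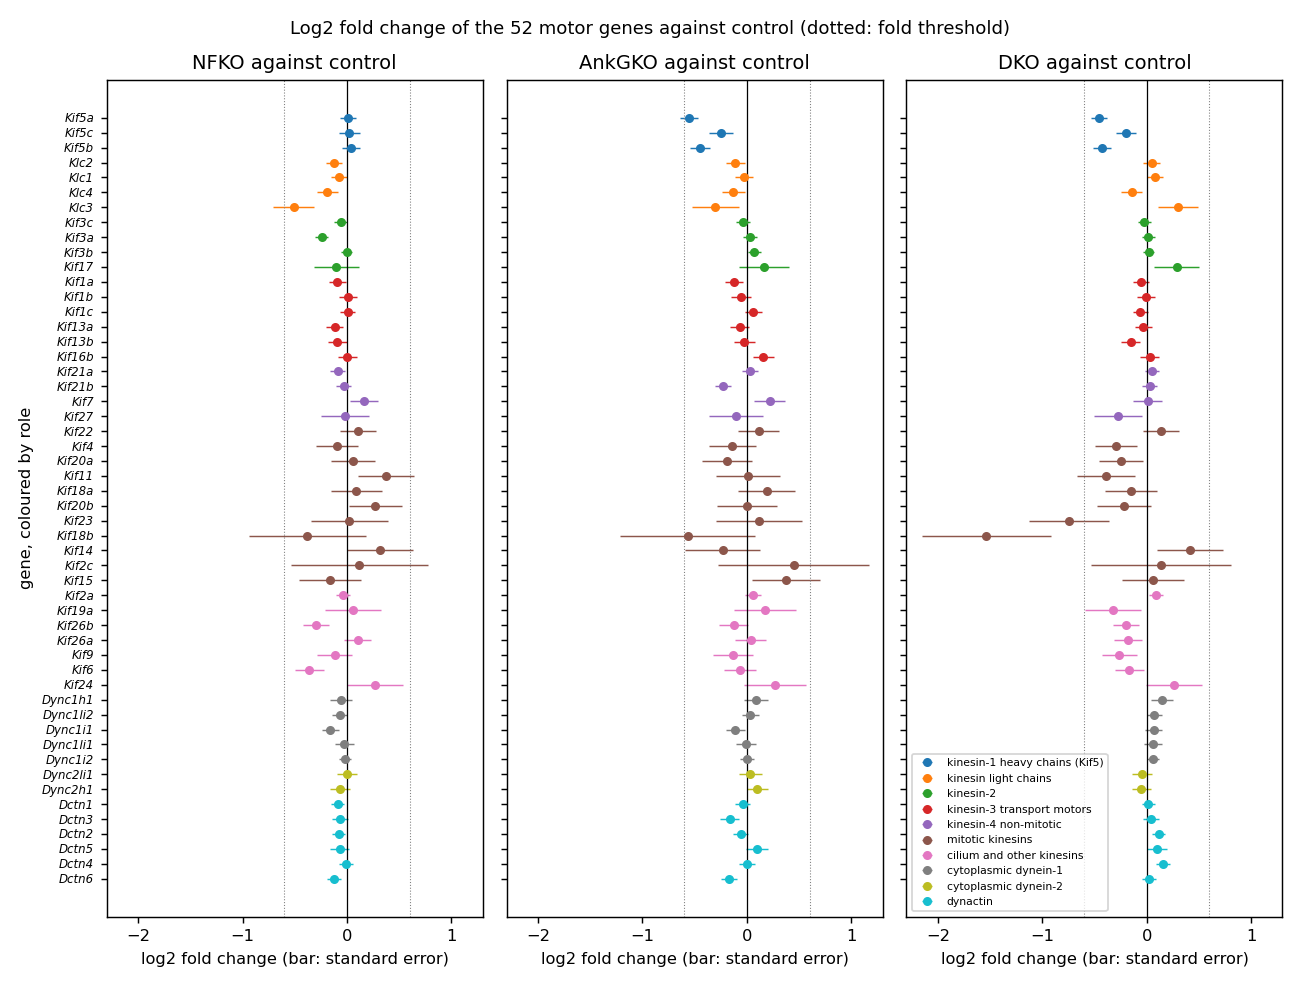
Log2 fold change of each of the 52 motor genes in NFKO, AnkGKO and DKO against control, with the standard error as bars, grouped and coloured by role. The Kif5 genes sit left of 0 in AnkGKO and DKO (Kif5a -0.55 and -0.46) and at 0 in NFKO (Kif5a 0.013), and the mitotic kinesins have the widest bars.

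The 4 kinesin light chains, which tie kinesin-1 to cargo, all had log2 fold changes below 0 in AnkGKO and in NFKO against control, while in DKO 3 were above 0, and none passed the adjusted p in edgeR. Klc1, the main neuronal light chain, was at 724 to 807 CPM in control, 687 to 754 CPM in NFKO, 701 and 811 CPM in AnkGKO and 784 to 863 CPM in DKO, overlapping between control and AnkGKO. Its log2 fold change was -0.028 in AnkGKO (95% interval -0.21 to 0.16) and 0.077 in DKO (-0.088 to 0.24). Klc2 was at 466 to 543 CPM in control, 436 and 512 CPM in AnkGKO and 523 to 534 CPM in DKO. Klc4 was at 34.5 to 36.1 CPM in control, at 31.6 and 32.5 CPM in AnkGKO, without overlap, and at 26.6 to 37.0 CPM in DKO. Klc3, a little expressed light chain, was at 2.69 to 2.86 CPM in control, 1.82 to 2.08 CPM in NFKO, 2.58 and 1.96 CPM in AnkGKO and 4.48, 2.97 and 2.89 CPM in DKO. DKO minus NFKO was 0.81 for Klc3 (standard error 0.20, edgeR adjusted p = 0.0939, DESeq2 adjusted p = 0.00604), and 27.7% of its 50-base words occur in another gene, most of them in Ercc2. The 3 heavy chains together made up 29.7 to 32.6% of the summed CPM of the 52 motor genes in control and NFKO and 24.4 to 25.5% in AnkGKO and DKO. The other 49 motor genes summed to 9784 to 10900 CPM in control and NFKO and to 9596 to 11101 CPM in AnkGKO and DKO.

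In NFKO against control no motor gene passed in edgeR on either rule, with 0.365% of all genes called and 0.461% past the adjusted p alone. At an unadjusted p under 0.05 there were 4 motor genes, all lower, beside 7.69% of all genes, and DESeq2 passed 1, Kif3a, on the adjusted p alone, beside 1.72% of genes. Kif3a, the motor subunit of heterotrimeric kinesin-2 that serves cilia and axonal transport, led them at 245, 243 and 249 CPM in control against 213, 209 and 202 CPM in NFKO. Its groups did not overlap, and the log2 fold change was -0.24 (standard error 0.062, edgeR adjusted p = 0.195, DESeq2 adjusted p = 0.00302). The AnkGKO libraries (238 and 265 CPM) and the DKO libraries (236 to 263 CPM) overlapped with control, and DKO minus NFKO was 0.26 (standard error 0.062, edgeR adjusted p = 0.0903, DESeq2 adjusted p = 0.000583). Its partner Kif3b was at 68.3 to 71.0 CPM in control and 67.9 to 70.9 CPM in NFKO. Klc3 (-0.51, edgeR adjusted p = 0.533) and Kif6, a motor of motile cilia (-0.36, edgeR adjusted p = 0.536), followed. The higher motor genes with the smallest p-values were Kif11 (0.37), Kif7, a kinesin of Hedgehog signaling in cilia (0.16), and Kif20b (0.27), with edgeR adjusted p-values of 0.887 to 0.946. Of the 52, 34 were lower and 18 higher, with a median log2 fold change of -0.046 beside -0.0050 over all genes, of which 51.6% were lower. In NFKO the 4 Schwann cell markers summed to 487 to 548 CPM against 172 to 334 CPM in control, and 5 blood cell markers to at least 46.1 CPM in each library against 16.3 to 31.3 CPM. The 4 meningeal fibroblast markers, all higher in NFKO, summed to 191 to 936 CPM against 88.6 to 205 CPM in control. The part of these markers in the motor gene values was not tested.

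**Figure D4:**
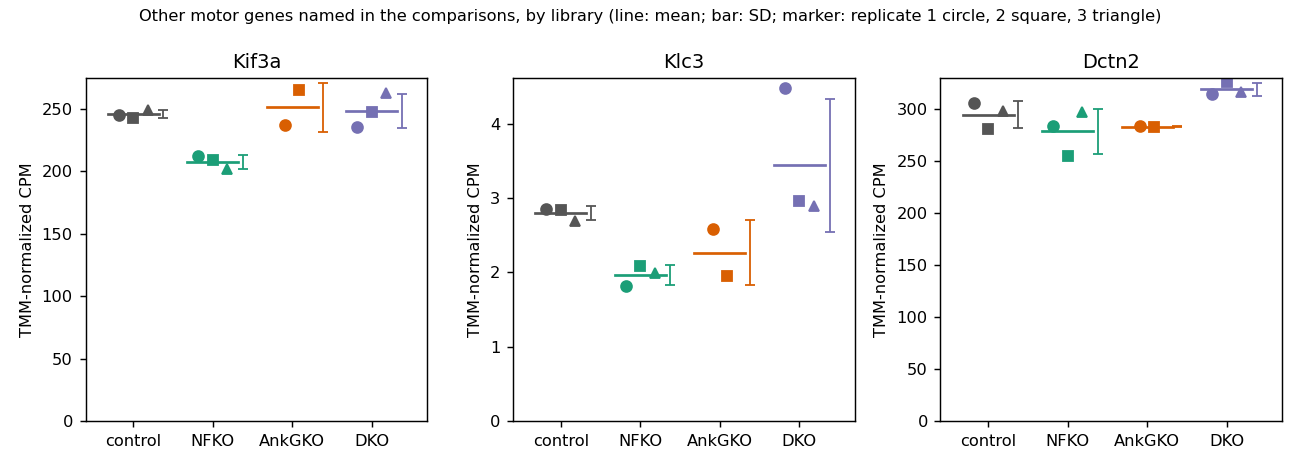
TMM-normalized CPM of Kif3a, Klc3 and Dctn2 in each library by genotype, with the mean as a line and the SD as a bar. Kif3a is lower in the 3 NFKO libraries (202 to 213 CPM) than in the controls (243 to 249 CPM), and Klc3 spreads most among the DKO libraries (2.89 to 4.48 CPM).

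The kinesin-3 genes, which carry synaptic and dense core vesicles, gave 0 of 6 past the adjusted p in edgeR in every comparison. Kif1a was at 2096 to 2212 CPM in control, 1963 to 2126 CPM in NFKO, 1809 and 2145 CPM in AnkGKO and 1912 to 2201 CPM in DKO, and Kif1b at 1891 to 2084, 1916 to 2208, 1767 and 2086, and 1847 to 2082 CPM. AnkGKO replicate 1 was the lowest library for both genes, as for the Kif5 genes. Kif1a changed by -0.12 in AnkGKO (95% interval -0.32 to 0.070) and by -0.054 in DKO (-0.23 to 0.12). Among the kinesin-4 genes, Kif21a, a slow axonal kinesin, was at 381 to 410 CPM in control and 392 to 428 CPM in DKO. Its paralog Kif21b was at 120 to 127 CPM in control and at 100 and 110 CPM in AnkGKO, without overlap (-0.23, standard error 0.076, edgeR adjusted p = 0.590). Kif2a, which takes microtubules apart at their ends, was at 78.5 to 82.0 CPM in control and 77.6 to 90.1 CPM in DKO.

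Of the dynein-1 and dynactin genes, none passed the adjusted p in edgeR in any comparison. Dync1h1, the heavy chain of the motor that runs towards the cell body, was at 1152 to 1267 CPM in control, 1092 to 1291 CPM in NFKO, 1147 and 1460 CPM in AnkGKO and 1202 to 1470 CPM in DKO, with overlap in each comparison against control. In DKO its log2 fold change was 0.15 (95% interval -0.082 to 0.37). All 5 dynein-1 genes and all 6 dynactin genes had log2 fold changes above 0 in DKO against control (medians 0.068 and 0.071, beside -0.00062 over all genes) and below 0 in NFKO against control (medians -0.055 and -0.076), and 0 of 11 passed the adjusted p in edgeR in either comparison. At an unadjusted p under 0.05 there was 1 of these 11 genes in DKO, Dctn4 (0.16, edgeR adjusted p = 0.629), beside 7.77% of all genes. There was none in NFKO, beside 7.69% of all genes. In AnkGKO against control 1 of them, Dctn6, had one (-0.17, edgeR adjusted p = 0.890), beside 5.39% of all genes. The libraries of Dctn6 and Dctn3 lay entirely under the controls there, as did those of 12.3% of all genes. Dctn1, which links dynein to cargo, was at 473 to 533 CPM in control and 501 to 520 CPM in DKO. Dctn2 was higher in DKO than in NFKO by 0.20 (standard error 0.065, edgeR adjusted p = 0.181, DESeq2 adjusted p = 0.0223). Dync2h1, the heavy chain of the dynein of cilia, was at 54.4 to 59.9 CPM in control and 50.2 to 59.7 CPM in DKO.

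DKO against AnkGKO and the interaction of the knockouts gave no motor gene past the adjusted p in edgeR, with 0.199% and 0.541% of all genes past it and 0.171% and 0.530% called. At an unadjusted p under 0.05 there were 5 and 8 motor genes, all with values above 0, beside 8.48% and 10.3% of all genes, and DESeq2 passed 0 and 1 on the adjusted p alone, beside 1.44% and 2.82% of genes. The genes with the smallest p-values between DKO and AnkGKO were Kif21b (0.26), Klc3 (0.60) and Dctn6 (0.19), higher in DKO, and Kif23 (-0.86), Kif19a (-0.50) and Kif1c (-0.12), lower, with edgeR adjusted p-values of 0.419 to 0.695. For the interaction they were Klc3 (1.11, edgeR adjusted p = 0.179, DESeq2 adjusted p = 0.0270), Dctn6 (0.31) and Kif21b (0.29) above 0 and Kif11 (-0.77), Kif7 (-0.37) and Kif26a (-0.32) below 0.

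The mitotic kinesins were counted at 3 to 139 reads per library, while the Kif5 genes had 20037 to 153397 reads. Their promoters are shown because the group shares sequence features that the choice of genes did not use. RefSeq promoters of 300 bases (table of GRCm38.p6, 250 before and 50 after the start) were found for 41 of the 52 genes. The cell cycle homology region TTTGAA, through which cell cycle genes are repressed in resting cells, was found on either strand in 9 of 10 mitotic kinesin promoters, in 3 of 31 promoters of the other motor genes and in 18.1% of 27025 promoters of all genes. The CCAAT box, searched as CCAAT on either strand, which can share no more than 1 end letter with TTTGAA, was in 6 of 10, 13 of 31 and 37.9%. Both motifs were in 6 of 10 mitotic promoters and in 7.1% of all. The promoter of Kif5c held neither. Some starts lie inside the annotated gene span, such as those of Kif14 (GRCm39 chr1:136395336-136395585, gene from 136394081), Kif2c and Kif27, which held TTTGAA. Kif14 and Kif2c count among the 9 mitotic promoters with it, Kif14 among the 6 with both motifs, and Kif27 among the 3 others. Whether these starts are used in this tissue was not tested. The 250 bases before the start are given for Kif11 (chr19:37364580-37364829, plus strand), the plus-end motor that pushes spindle poles apart, for Kif22 (chr7:126641593-126641842, minus strand), which moves chromosomes, and for Kif5c (chr2:49509048-49509297, plus strand), placed in GRCm39 by exact match, 5′ to 3′ with both motifs in capitals.
Kif11: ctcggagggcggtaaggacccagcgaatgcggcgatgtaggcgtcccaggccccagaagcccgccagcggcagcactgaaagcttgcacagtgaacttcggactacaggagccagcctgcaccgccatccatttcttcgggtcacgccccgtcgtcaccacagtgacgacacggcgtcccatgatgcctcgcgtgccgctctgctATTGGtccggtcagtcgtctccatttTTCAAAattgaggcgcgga
Kif22: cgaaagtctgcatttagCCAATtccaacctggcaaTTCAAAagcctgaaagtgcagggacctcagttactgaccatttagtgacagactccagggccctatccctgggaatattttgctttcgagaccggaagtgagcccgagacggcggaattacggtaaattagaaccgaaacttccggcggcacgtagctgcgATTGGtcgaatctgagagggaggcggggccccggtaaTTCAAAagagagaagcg
Kif5c: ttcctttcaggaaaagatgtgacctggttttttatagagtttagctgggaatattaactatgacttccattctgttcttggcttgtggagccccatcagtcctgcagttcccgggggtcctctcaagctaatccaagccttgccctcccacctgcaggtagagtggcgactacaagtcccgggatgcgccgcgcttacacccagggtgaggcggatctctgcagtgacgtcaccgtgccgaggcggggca

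None of the 11 mitotic kinesins passed the adjusted p in edgeR or DESeq2 in any comparison. In DKO against control, Kif18b, which acts on microtubule plus ends in mitosis, had 3, 4 and 7 reads per library against 8, 14 and 17 in control (-1.53, standard error 0.62, edgeR adjusted p = 0.619). It was the only one with an unadjusted p under 0.05. At these counts, near the floor, the interval of the change ran from -2.89 to -0.18. Kif11 was at 1.29 to 2.07 CPM in control, 1.97 to 2.66 CPM in NFKO, 1.77 and 1.74 CPM in AnkGKO and 0.98 to 1.94 CPM in DKO, and DKO minus NFKO was -0.76 (standard error 0.28, edgeR adjusted p = 0.211). Kif23, needed for the last step of cell division, was at 0.910, 0.765 and 0.50 CPM in control and at 0.280 to 0.654 CPM in DKO (-0.75, edgeR adjusted p = 0.653). Kif2c, which frees wrongly attached chromosomes, ranged from 0.0700 to 0.475 CPM over all libraries. Kif4, Kif14, Kif15, Kif18a, Kif20a and Kif20b, which act in spindle assembly or in the last steps of division, had log2 fold changes of -0.30, 0.41, 0.062, -0.15, -0.25 and -0.22 in DKO against control, with edgeR adjusted p-values of 0.707 to 0.970. Kif22 varied least of the 11, from 1.59 to 2.01 CPM.

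The median log2 fold change of the mitotic kinesins was 0.089 in NFKO, 0.0089 in AnkGKO and -0.22 in DKO, beside 0.021, -0.45 and -0.42 for the Kif5 genes and -0.0050, -0.0050 and -0.00062 over all genes. Summed, the mitotic kinesins were at 11.2, 11.8 and 9.55 CPM in control, 12.6, 12.5 and 10.1 CPM in NFKO, 11.5 and 10.5 CPM in AnkGKO and 9.40, 11.1 and 8.35 CPM in DKO. The groups overlapped in each comparison with control. A fixed list of 20 proliferation genes, such as Mki67 and Top2a, summed to 12.9 to 13.5 CPM in control replicate 3, DKO replicate 1 and DKO replicate 3 and to 19.2 to 26.0 CPM in the other 8 libraries, and those 3 libraries also had the lowest mitotic kinesin sums. Markers of oligodendrocyte precursors, a dividing cell type, summed to 608 to 626 CPM in control and to 432 to 571 CPM in DKO, and their part in the mitotic values was not tested. Per 10000 CPM of Kif5 genes there were 19.2 to 26.1 CPM of mitotic kinesins in control, 21.3 to 26.7 in NFKO, 36.9 and 28.1 in AnkGKO and 23.1 to 31.4 in DKO. Both AnkGKO libraries lay above the controls in this ratio, and DKO overlapped with them. The Kif5 sum in this ratio averaged 3428 CPM in AnkGKO and 4681 CPM in control, and the mitotic sum 10.99 and 10.85 CPM, so that the ratio restates the Kif5 values above. On the log2 scale the mean ratio differed from control by 0.48 in AnkGKO, 0.20 in DKO and 0.094 in NFKO, beside a pooled SD of 0.23 within genotypes. Leaving out 1 library gave 0.28 to 0.68, 0.067 to 0.30 and -0.038 to 0.20.

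**Figure D5:**
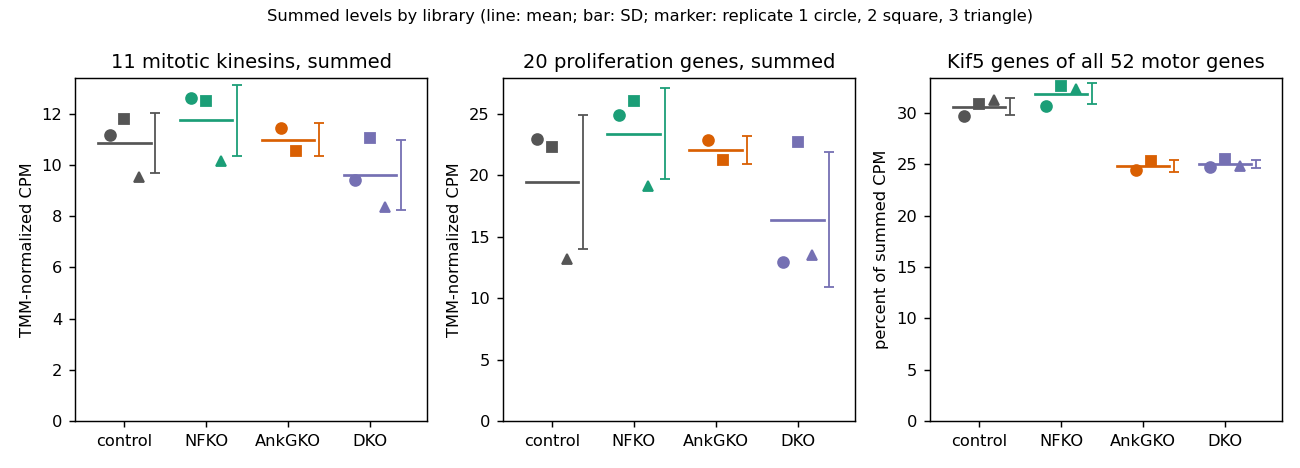
Summed CPM of the 11 mitotic kinesins (left) and of 20 proliferation genes (middle) and the percent of all motor gene CPM in the 3 Kif5 genes (right) in each library by genotype, with the mean as a line and the SD as a bar. Mitotic kinesin sums overlap between genotypes (8.35 to 12.6 CPM), and the Kif5 share is 29.7 to 32.6% in control and NFKO and 24.4 to 25.5% in AnkGKO and DKO.

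Genes that work with the motors were followed in 5 fixed lists. None of the tested genes passed the adjusted p in edgeR in any comparison: 7 other kinesins and partners, 7 dynein light chains, 17 dynein regulators and adaptors, 22 kinesin cargo adaptors and 20 proliferation genes. At an unadjusted p under 0.05 in DKO against control there were 0, 1, 3, 4 and 1 of them, beside 7.77% of all genes. Among the cargo adaptors, 18 of 22 were lower in NFKO, 17 of 22 in AnkGKO and 14 of 22 in DKO against control, with medians of -0.062, -0.036 and -0.028, beside 51.6%, 51.3% and 50.2% of all genes. Proliferation genes were lower in 17 of 20 in DKO (median -0.26) and higher in 13 of 20 in both NFKO (0.21) and AnkGKO (0.17).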

How the data were processed

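Bulk polyA RNA-seq of 11 libraries was analysed, grouped by their genotype labels. The authors trimmed reads with Trimmomatic 0.39, aligned them with STAR 2.7.11a to GRCm39 and deposited raw counts per gene. The names of the 5 summary lines are those of another counter than STAR, the counting strand is not given in the sources used here, and read layout is stated differently in labels and methods. The summary lines (42.7 to 43.8% of reads) and the authors' table of counts divided by size factors were not used. Genes with at least 10 counts in total (17557 of 22609) were fitted in 1 model over the 4 genotypes with edgeR 4.0.16 (TMM, robust quasi-likelihood, R 4.3.3), adjusted by Benjamini-Hochberg over all genes. DESeq2 1.42.0 was an alternative, with the other settings listed in the closing section. Intervals are 95%. Positions and exon lengths came from GENCODE vM39.

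The motor genes, gene lists and tests were chosen with earlier results of these data known. Named are the Kif5 genes, the mitotic kinesins, 1 lead gene per role, and per comparison up to 3 higher and 3 lower genes by p-value. Klc2, Klc4, Kif1b, Kif27, Kif24, Dctn3 and Rnf41 were named after their values were seen. Residuals of same-numbered control and NFKO libraries correlated at 0.61, 0.51 and 0.22 over 13910 genes. A block by replicate number was therefore run as an alternative, and the main fit had no block. Only 7 of all 15 same-numbered pairs were above 0.1, with the lowest at -0.49. Control replicate 2 and AnkGKO replicate 1, which differ in number, were at 0.49. The labels do not say what the numbers mark. Both tools were tested on simulated data. Precision is limited by 2 to 3 libraries a group, and floors of 3 counts cover counting error only.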

Additional observations from a re-analysis of the deposited data

Results flagged for a closer look

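Klc3, the least expressed kinesin light chain, lay below every control library in all NFKO libraries (mean 1.96 CPM) and in both AnkGKO libraries (mean 2.27 CPM) but above every control library in all DKO libraries (mean 3.45 CPM). Opposite directions between genotypes singled it out. The interaction of the knockouts was 1.11 on the log2 scale (edgeR adjusted p = 0.179, DESeq2 adjusted p = 0.0270), so the difference between genotypes did not pass the main test. Among the DKO libraries, replicate 1 was at 4.48 CPM and the other two were at 2.97 and 2.89 CPM, close to the highest control at 2.86 CPM.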

How the results depend on the processing

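The settings were DESeq2, its size factors for edgeR, filterByExpr or no filter on counts, the libraries compared only, the replicate block, the adjusted p alone, a non-robust fit, each library left out in turn, and control replicate 1 and NFKO replicate 1 left out together, and for the mitotic to Kif5 ratio mean log2 CPM and a list without Kif20b and Kif22. A lone AnkGKO library was assumed to vary like the other groups. Called motor genes went from 0 to 1 with DESeq2 in DKO against NFKO and in the interaction (Klc3 in both), to 1 without AnkGKO replicate 2 in AnkGKO against control (Kif5a), and to 1, 2 and 2 with the adjusted p alone in AnkGKO against control, DKO against NFKO and the added comparison by Ank3. Over all genotypes the 2 became 4 with DESeq2, and 1 with the replicate block, without the pair of libraries, and without NFKO replicate 1 or 2 or DKO replicate 3 (range over left-out libraries 1 to 2). At the adjusted p alone DESeq2 passed 1 (NFKO), 2 (AnkGKO), 2 (DKO against control), 5 (DKO against NFKO) and 1 (interaction), beside 290, 193, 117, 1155 and 485 of all genes; AnkGKO had 0 with only the libraries compared and without the pair; DKO against NFKO had 1 under the replicate block and 1 without the pair; the added comparison had 1 without the pair. Leaving out 1 library gave 0 to 1 for AnkGKO, 0 to 1 for DKO against control, 0 to 2 for DKO against NFKO and 1 to 2 for the added comparison. With the block Kif5a stayed past the adjusted p alone wherever it had passed it in edgeR. Of the passes of Kif5b, only those in DKO against NFKO and over all genotypes were lost. In DKO against control, DESeq2 gave Kif5a -0.46 and Kif5b -0.42, past the threshold, and leaving out 1 library gave -0.49 to -0.43, -0.47 to -0.33 and -0.27 to -0.15 for Kif5a, Kif5b and Kif5c, with Kif5a past it without AnkGKO replicate 1 or 2 (edgeR adjusted p = 0.0470 and 0.0463). Without AnkGKO replicate 1 the difference of DKO from AnkGKO changed sign in all 3 Kif5 genes (-0.028, -0.081 and -0.10). The mitotic to Kif5 ratio without 1 library was 0.28 to 0.68 in AnkGKO, 0.067 to 0.30 in DKO and -0.038 to 0.20 in NFKO. The cause of these changes was not tested. Mitotic kinesins are limited by counts of 3 to 139 per library.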
